A study of Mus musculus with 4 samples.

Results

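The fibroblast growth factor (FGF) pathway was followed through 10 genes, Fgf4, Fgfr1, Fgfr2, Spry1, Spry4, Spred1, Dusp4, Dusp6, Etv4 and Etv5, picked by symbol from the 54146 mouse genes of the deposited table. All 10 passed the low-count filter and were among 16789 genes tested. The libraries come from mouse embryonic stem (ES) cells labelled Supt3 KO (2 libraries), and from ES cells labelled Supt3 WT (2 libraries), all kept in LIF and serum. For the mutant allele, the clones behind the libraries and any shared background alleles, the labels give nothing. Each library was made by TT-seq, in which newly made RNA is tagged with 4-thiouridine (4sU), purified and sequenced, so a level reports RNA made during the labelling rather than stored messenger RNA. Nothing in the labels ties a library to a separate culture, so each p-value rests on library-to-library spread that may be technical.

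FGF ligands bind receptor tyrosine kinases, which pass the signal through the FRS2, GRB2 and SOS adaptors to Ras, the RAF kinases and finally the kinases MEK and ERK. ERK then switches on genes that brake the same cascade, among them the Sprouty and Spred proteins and the dual-specificity phosphatases, as well as the ETS transcription factors ETV4 and ETV5. In ES cells FGF4 is secreted by the cells themselves, and the ERK activity it drives is known as a cue for leaving the naive pluripotent state and for forming primitive endoderm.

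Of the 10 genes, Fgf4 alone passed the test: in KO its level fell by 38.7%. None rose by the test, although Spry1, Spry4, Dusp6 and Etv4 stood higher in both KO libraries than in either WT library. The test was edgeR's quasi-likelihood test on raw counts with TMM scaling (trimmed mean of M-values), called at a Benjamini-Hochberg adjusted p under 0.05 over all genes tested, and levels are counts per 1e6 mouse counts on that scale (CPM). It called 8.07% of all tested genes, 4.05% higher in KO and 4.02% lower, so 1 called gene of 10 is near the background. The groups did not overlap for 7 of the 10 genes, 4 higher and 3 lower in KO, beside 26.7% and 26% of all tested genes. The median log2 fold change (KO over WT) was 0.12 over the 10 genes and 0.01 over all tested genes. Mouse counts per library were 13092151 and 18386501 in KO and 13512654 and 19405100 in WT, so replicate 1 of each genotype falls into a shallower pair and replicate 2 into a deeper pair. Supt3 itself had 123 and 140 CPM in the libraries labelled KO, against 148 and 159 CPM in WT libraries (edgeR adjusted p = 0.232). With the position of the mutation unknown, that level does not check the labels.

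**Figure D1:**
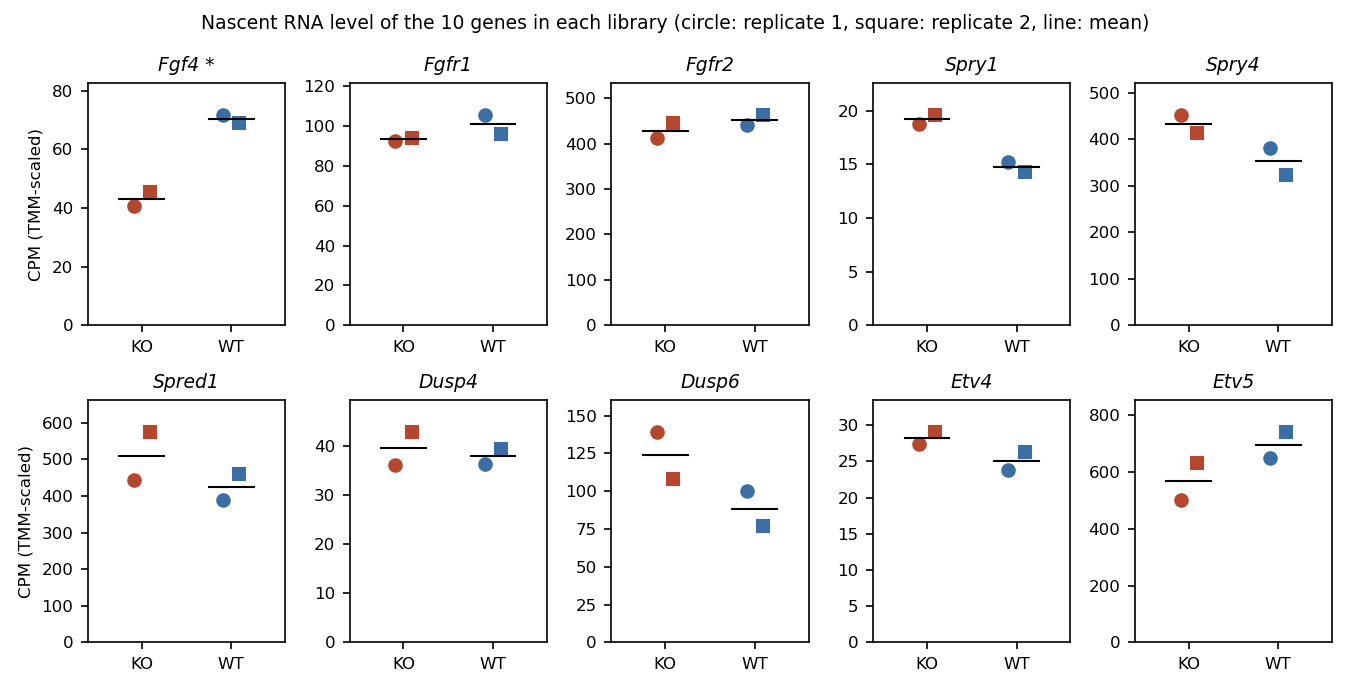
Level of each of the 10 genes in every library, in TMM-scaled CPM on axes that start at 0, with KO left of WT; circles are replicate 1, squares replicate 2, lines group means, and the star marks an adjusted p under 0.05. Fgf4 lay at 40.5 and 45.5 CPM in KO and at 71.8 and 68.8 CPM in WT, the largest absolute log2 fold change among the 10 genes.

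Fgf4 encodes the ligand. It had 40.5 and 45.5 CPM in KO libraries (546 and 811 counts), against 71.8 and 68.8 CPM in WT libraries (980 and 1316 counts). Both KO libraries were well below both WT libraries, and the gap between genotypes exceeded the gap within either. The mean was 43.0 ± 3.54 CPM in KO and 70.3 ± 2.13 CPM in WT (SD, n = 2 each), a log2 fold change of -0.71 ± 0.10 (SE, edgeR adjusted p = 0.00476; 95% interval -0.93 to -0.48). The log2 difference of KO and WT was -0.83 within the shallower pair and -0.60 within the deeper pair. Each fit that left out 1 library also called Fgf4, with log2 fold changes between -0.63 and -0.79. Here and for all genes below, fewer cells making the RNA and less RNA made per cell cannot be told apart in bulk libraries.

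Fgf4 was the most strongly transcribed FGF ligand per length. Its level per kb of gene span was 2.41 CPM in KO and 3.93 CPM in WT, and the next ligand in WT, Fgf15, had 1.06 CPM per kb in KO and 1.21 CPM per kb in WT. The deposited span of Fgf4 (ENSMUSG00000050917) is chr7:144847367-144865243 on the plus strand of mm10, 17.9 kb long. In the GENCODE M21 annotation 2 transcripts make up the gene, a short one of 3.86 kb and a long one that starts upstream and covers 15.5 kb. The count therefore also takes plus-strand reads from the stretch between both start sites, and it cannot be divided between them.

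The sequence around the start of the short Fgf4 transcript is shown because Fgf4 was the called gene, and that of Dusp6, an ERK phosphatase gene with the opposite sign in both library pairs, for comparison. Both windows are from RefSeq (GRCm38.p6), run from 250 bases before to 50 after the start on the plus strand, and lie at chr7:144861136-144861435 and chr10:99262981-99263280. Capitals mark matches, on either strand, to the ETS motif CCGGAAG, the GC box GGGCGG, the TATA box TATAAA, the CCAAT box CCAAT or the octamer ATGCAAAT, and no marked matches overlap.
Fgf4: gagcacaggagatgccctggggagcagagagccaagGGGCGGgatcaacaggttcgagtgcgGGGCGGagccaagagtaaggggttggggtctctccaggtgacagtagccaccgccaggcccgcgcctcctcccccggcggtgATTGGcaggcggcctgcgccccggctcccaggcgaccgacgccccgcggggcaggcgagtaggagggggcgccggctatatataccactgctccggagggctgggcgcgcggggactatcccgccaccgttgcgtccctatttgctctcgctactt
Dusp6: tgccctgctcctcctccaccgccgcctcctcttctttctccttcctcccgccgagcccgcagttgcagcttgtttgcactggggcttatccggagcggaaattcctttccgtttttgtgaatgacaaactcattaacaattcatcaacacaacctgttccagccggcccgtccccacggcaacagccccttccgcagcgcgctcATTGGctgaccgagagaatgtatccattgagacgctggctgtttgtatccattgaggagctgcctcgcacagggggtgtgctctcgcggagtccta
The Fgf4 window held 2 GC boxes and 1 CCAAT box, and the Dusp6 window held 1 CCAAT box. Among all 32851 RefSeq windows of 300 bases, 35.7% held a GC box, 37.4% a CCAAT box, 13.6% a TATA box, 8.86% the ETS motif and 1.74% the octamer. The last 3 motifs had no match in either printed window, which says only that those exact letters are absent there. Variant forms were not searched, and the Fgf4 window holds the stretch tatatata, which the letters TATAAA do not match. Windows of 6 of the 10 genes were examined (Fgf4, Fgfr2, Spry1, Spred1, Dusp6 and Etv5), and none of these 7 windows held the exact letters CCGGAAG. Other forms of an ETS site were not searched, so their absence is not shown. For Fgfr1, Spry4, Dusp4 and Etv4 no window was examined, so nothing is said of the motif there. GC content was 69.7% in the Fgf4 window and 57.3% in the Dusp6 window, beside a median of 52.7% over all windows.

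Of the 8 tested neighbours of Fgf4, 1 passed the test. These reach into 300 kb on either side of it. The ligand gene Fgf3, just upstream, was scarce, with 0.742 and 1.35 CPM in KO libraries and 1.69 and 0.784 CPM in WT libraries. Fgf15, downstream, had 6.23 and 3.14 CPM in KO libraries and 5.94 and 4.81 CPM in WT libraries. The cell cycle gene Ccnd1 had 59.9 and 60.7 CPM in KO libraries, against 68.1 and 66.7 CPM in WT libraries (log2 fold change -0.16 ± 0.09, edgeR adjusted p = 0.323). KO and WT overlapped for both FGF genes, while for Ccnd1 both KO libraries were slightly lower. The neighbour that passed was the short non-coding RNA gene Bc1, at 17.4 and 11.3 CPM in KO libraries and 34.2 and 24.2 CPM in WT libraries (-1.03 ± 0.22, edgeR adjusted p = 0.0265).

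**Figure D2:**
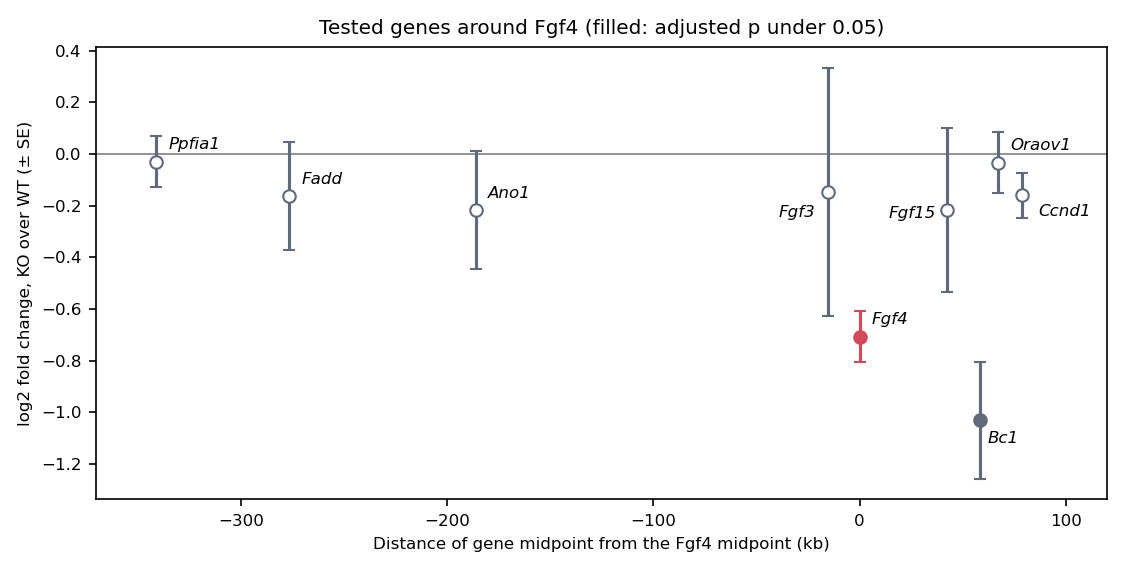
Log2 fold change of KO over WT (± SE) for tested genes near Fgf4, against the distance in kb of each gene's midpoint from that of Fgf4; filled points have an edgeR adjusted p under 0.05. Fgf4 (-0.71) and Bc1 (-1.03) are filled, and the other 7 genes lie between -0.22 and -0.03.

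The receptor genes Fgfr1 and Fgfr2 did not pass the test. Fgfr1, the main FGF receptor gene of ES cells, had 92.6 and 94.3 CPM in KO libraries, against 105.8 and 96.2 CPM in WT libraries. The KO libraries were lower, but by less than the gap between the WT libraries for the closest pair (log2 fold change -0.11 ± 0.09, edgeR adjusted p = 0.522). The 95% interval of its fold was 0.803 to 1.07. Fgfr2, a receptor gene associated with primitive endoderm, had 411.8 and 444.8 CPM in KO libraries and 440.0 and 463.7 CPM in WT libraries, and the groups overlapped (-0.08 ± 0.11, edgeR adjusted p = 0.728).

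The Fgfr2 value cannot be read as the receptor gene alone. Its deposited span is chr7:130162451-133123350, or 2961 kb, because 1 of 27 GENCODE M21 transcripts starts far upstream, while the next longest covers 103.8 kb. Inside that span lie 35 other genes on the same strand, and all 35 had 0 counts in every library, 13 protein-coding genes such as Ate1 and Oat among them. Of 33 genes inside it on the opposite strand, 3 were at 0. Across the whole table, 457 of 457 protein-coding genes nested in a same-strand gene were at 0, against 26.7% of 814 nested in an opposite-strand gene and 14.1% of 20707 nested in none. Counts in these files thus behave as strand-specific counts over whole gene spans, introns included, with reads shared by overlapping same-strand genes left uncounted. The spans of Fgf4 and Fgfr1 hold no other same-strand gene.

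The Sprouty and Spred genes encode membrane-associated inhibitors of the Ras to ERK step. Spry1 had 18.8 and 19.6 CPM in KO libraries, against 15.2 and 14.3 CPM in WT libraries. Both KO libraries were higher, yet the difference did not pass the test (log2 fold change 0.39 ± 0.13, edgeR adjusted p = 0.117). Spry4, the more abundant of both Sprouty genes, had 453.7 and 413.8 CPM in KO libraries, against 382.0 and 323.5 CPM in WT libraries (0.30 ± 0.12, edgeR adjusted p = 0.174). The groups did not overlap, though the gap between the closest KO and WT libraries was smaller than that between the WT libraries. Spred1 had 442.5 and 575.3 CPM in KO libraries and 388.9 and 460.1 CPM in WT libraries, and here the groups overlapped (0.26 ± 0.15, edgeR adjusted p = 0.339). With 1 library left out, the log2 fold change of Spred1 was 0.44 without KO replicate 1, 0.06 without KO replicate 2, 0.14 without WT replicate 1 and 0.39 without WT replicate 2. That of Spry4 was 0.36 without KO replicate 2 and 0.18 without WT replicate 2.

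The phosphatase genes differed from each other. Dusp6 encodes a cytoplasmic phosphatase that removes the activating phosphates from ERK. It had 139.2 and 108.2 CPM in KO libraries, against 99.9 and 76.8 CPM in WT libraries. Both KO libraries were higher, and the log2 difference was 0.48 in the shallower and 0.50 in the deeper pair. Across the 4 libraries the log2 fold change was 0.49 ± 0.15 (edgeR adjusted p = 0.0897, 95% interval of the fold 1.11 to 1.78), which missed the threshold beside log2 gaps of 0.36 between KO libraries and 0.38 between WT libraries. DESeq2 called Dusp6 (adjusted p = 0.0483). In edgeR the log2 fold change of Dusp6 was 0.66 without KO replicate 2 and 0.68 without WT replicate 1. It was smaller without KO replicate 1 (0.30) and with WT replicate 2 left out (0.31). Dusp4, which encodes a nuclear phosphatase of the family, had 36.3 and 43.0 CPM in KO libraries and 36.5 and 39.4 CPM in WT libraries, with overlapping groups (0.06 ± 0.12, edgeR adjusted p = 0.801, 95% interval of the fold 0.870 to 1.25).

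Etv4 and Etv5, which encode closely related ETS activators downstream of ERK, lay on opposite sides of 0. Etv5 had 501.3 and 633.2 CPM in KO libraries, against 650.6 and 741.1 CPM in WT libraries. The higher KO library came close to the lower WT library, and the difference was not called (log2 fold change -0.29 ± 0.14, edgeR adjusted p = 0.258). The log2 fold change of Etv5 was -0.14 without KO replicate 1, -0.47 without KO replicate 2, -0.39 without WT replicate 1 and -0.20 without WT replicate 2. Etv4 was far less abundant, with 27.4 and 29.1 CPM in KO libraries and 23.8 and 26.2 CPM in WT libraries. Its groups did not overlap, and it did not pass either (0.17 ± 0.12, edgeR adjusted p = 0.429). The difference between both genes' changes was not tested.

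**Figure D3:**
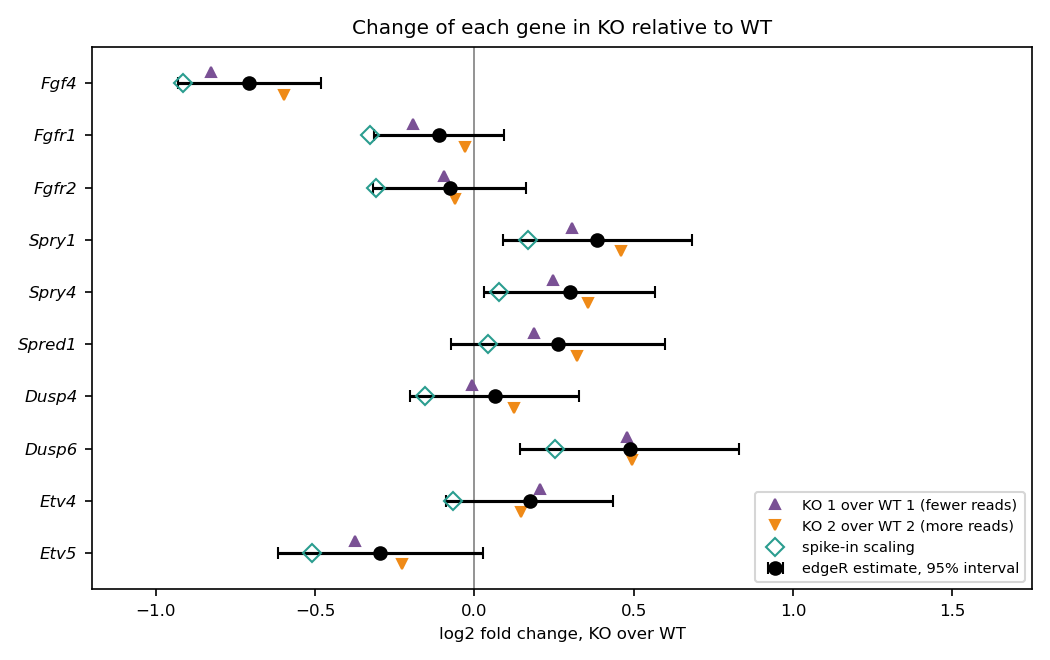
Log2 fold change of KO over WT for the 10 genes: black points are edgeR estimates with 95% intervals, triangles the ratio within each pair of libraries, and open diamonds the estimate with spike-in scaling. Fgf4 has the lowest value (-0.71) and Dusp6 the highest (0.49), and spike-in scaling places every gene lower.

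Per kb of gene span the 10 levels covered a wide range. In WT the order was Spry4 (23.5 CPM per kb), Dusp6 (20.7), Etv5 (11.9), Spred1 (6.97), Fgf4 (3.93), Spry1 (3.16), Dusp4 (3.01), Fgfr1 (1.63) and then Etv4, with Fgfr2 last (0.153) over its extended span. In KO the levels were 28.9 CPM per kb for Spry4, 29.0 for Dusp6 and 2.41 for Fgf4, which placed Fgf4 below Spry1 (4.13) and Dusp4 (3.15). The place of Fgf4 depends on its whole span of 17.9 kb, of which the short transcript covers 3.86 kb. The WT libraries of Spry4 (25.5 and 21.6 CPM per kb) overlapped those of Dusp6 (23.5 and 18.0), and those of Fgfr1 (1.71 and 1.55) overlapped those of Etv4 (1.52 and 1.68). Spry1 (3.26 and 3.07) and Dusp4 (2.90 and 3.13) overlapped as well. Within each WT library Spry4 was above Dusp6. The order of Fgfr1 and Etv4, and that of Spry1 and Dusp4, changed between the WT libraries. Differences between genes were not tested.

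The wider pathway was described with 5 lists of 77 genes, of which 68 were tested; Spry3 was not analysed here and 8 others missed the low-count filter. The test called 4 of them higher and 2 lower, 8.82% of those tested beside 8.07% of all genes. Of 15 tested ligand genes, Fgf4 was lower and Fgf14 higher, with a list median log2 fold change of -0.06. Fgf14 belongs to the intracellular FGF-like proteins, which are not secreted ligands. It had 14.5 and 12.8 CPM in KO libraries, against 7.99 and 7.74 CPM in WT libraries (0.79 ± 0.16, edgeR adjusted p = 0.0194). Of 4 tested genes within 1 Mb of Fgf14, which lies on chromosome 14, 1 was called higher and none lower. Their median log2 fold change was 0.40. The call of Fgf14 was lost without WT replicate 2 (adjusted p = 0.0624). No gene among 6 tested receptor and co-receptor genes passed (0 calls, with 1 at an unadjusted p under 0.05; list median -0.07), and DESeq2 called 0 and limma voom 0. The co-receptor gene Klb, the exception at the unadjusted level, had 3.41 and 4.71 CPM in KO libraries and 1.83 and 2.35 CPM in WT libraries (0.95 ± 0.28, edgeR adjusted p = 0.0802). The decoy-like receptor gene Fgfrl1 had 6.16 and 6.84 CPM in KO libraries and 7.04 and 6.69 CPM in WT libraries.

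Among 23 adaptor and Ras to ERK cascade genes, 2 rose, among them Sos2, Sos1 fell and 20 did not pass, with a list median of 0.04. Sos1 and Sos2 encode the exchange factors that load Ras with GTP. Sos1 had 81.5 and 94.6 CPM in KO libraries, against 161.2 and 175.3 CPM in WT libraries (log2 fold change -0.93 ± 0.10, edgeR adjusted p = 0.00194). Of 16 tested genes within 1 Mb of Sos1, which lies on chromosome 17, 10 were called lower and none higher, and their median log2 fold change was -0.83. Sos2 had 44.7 and 48.5 CPM in KO libraries, against 34.2 and 35.4 CPM in WT libraries (0.42 ± 0.10, edgeR adjusted p = 0.0373). It lost its call in DESeq2 (adjusted p = 0.0988) and without KO replicate 2, WT replicate 1 or WT replicate 2 (adjusted p = 0.0539, 0.156 and 0.132).

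Of 12 tested ERK feedback inhibitor genes, Spry2 rose and 11 did not pass, and 9 of the 12 had a positive log2 fold change (list median 0.28). Spry2 encodes another Sprouty inhibitor. It had 218.0 and 211.5 CPM in KO libraries, against 150.5 and 128.4 CPM in WT libraries (0.62 ± 0.10, edgeR adjusted p = 0.00976), and without WT replicate 2 the adjusted p was 0.105. Its neighbours on chromosome 14 also differed: of 5 tested genes within 1 Mb, 3 were called higher and 1 lower, with a median of 0.50. Around Fgf4, 1 of 13 tested genes within 1 Mb was called, on the lower side, with a median of -0.16. Over all tested genes 8.07% were called and the median was 0.01. Whether these regions differ from each other was not tested. At an unadjusted p under 0.05, 6 feedback genes were higher and 1 lower, and 22.9% of all tested genes reach that level. The 12 ERK-responsive transcription genes held 0 calls in edgeR (2 at an unadjusted p under 0.05), 1 in DESeq2 and 0 in limma voom, with a list median of 0.06. Their most abundant members outside the 10 genes were Etv1, with 131.1 and 131.7 CPM in KO libraries and 136.5 and 167.5 CPM in WT libraries, and Ccnd1, given above.

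**Figure D4:**
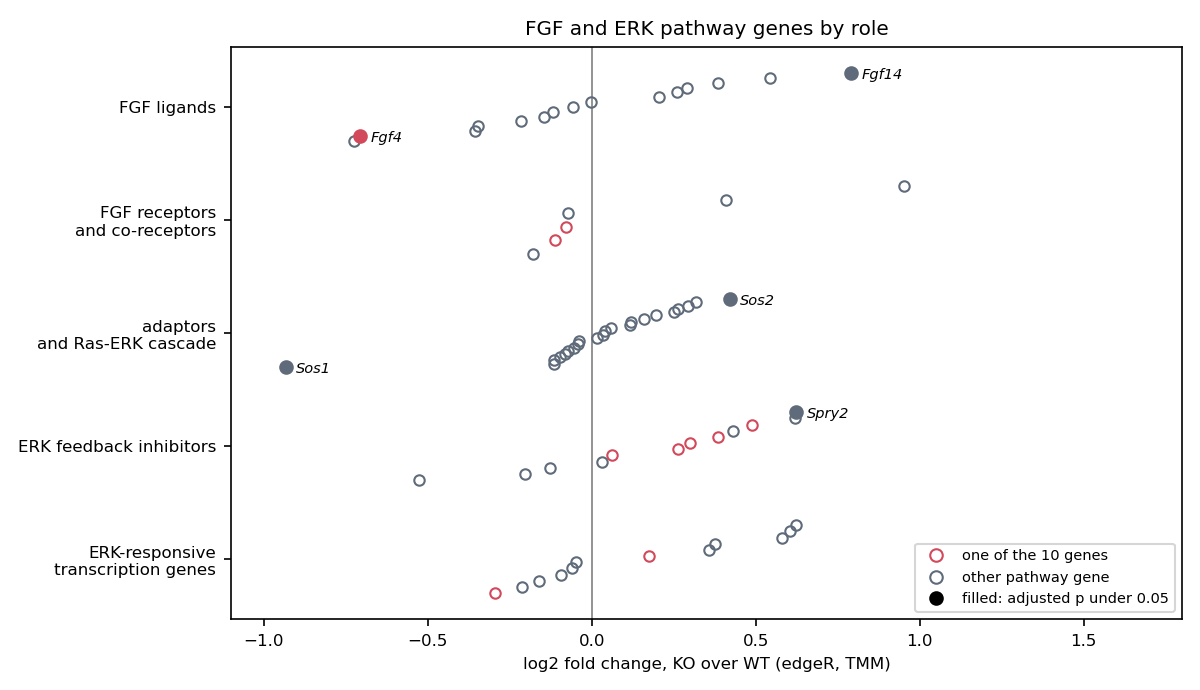
Log2 fold change of KO over WT (edgeR, TMM scaling) for the tested genes of the 5 pathway lists (1 cascade gene is not plotted), 1 row per role; red circles are the 10 genes, grey circles other pathway genes, and filled circles have an adjusted p under 0.05. Fgf4 and Sos1 are filled on the lower side, and Fgf14, Sos2 and Spry2 on the higher side.

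Other fits called different numbers of the 10 genes. Besides Fgf4, which DESeq2 and limma voom also called, DESeq2 added Dusp6 and voom added none, where these tools called 6.99% and 8.06% of all genes. A term for the shallower and deeper pair, a grouping taken from the same counts, left 1 residual degree of freedom and called 25.7% of all genes. With it 6 of the 10 genes were called, Spry1, Spry4, Spred1 and Dusp6 higher and Fgf4 and Etv5 lower. Dropping KO replicate 1 moved the median log2 fold change over the 10 genes to 0.19, and dropping KO replicate 2 moved it to -0.00337. The fit lacking WT replicate 1 had a median of 0.0522, and the fit lacking WT replicate 2 had 0.153. Each of these fits leaves a lone library in a genotype, so their calls rest on the spread between libraries of the other genotype.

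A spike-in of 4sU-tagged fission yeast (S. pombe) RNA allows a scaling that does not assume a constant total of mouse RNA. The ratio of mouse to yeast counts was 2.71 and 4.86 in KO libraries, against 3.25 and 5.60 in WT libraries. With that scaling the median over all genes moved to -0.23, Dusp4 and Etv4 took the opposite sign (-0.16 and -0.0675), and edgeR called 0.101% of genes and none of the 10. Fgf4 then stood at -0.92 ± 0.71 on the log2 scale (unadjusted p = 0.200, edgeR adjusted p = 1.00). The size factors behind the authors' normalized signal, 1.21 and 0.940 in KO and 1.03 and 0.861 in WT, have the same order over libraries as the yeast totals. That signal of Fgf4 was 452.4 and 862.7 in KO libraries, against 953.6 and 1529 in WT libraries. Fgf4 was the 1 gene of the 10 with both KO libraries below both WT libraries on that scale, beside 13.2% of tested genes, and the other 9 overlapped. In the table of the authors' deposited comparison, 0.0271% of genes have an adjusted p under 0.05, and none of the 10. Its log2 fold change for Fgf4 is -0.66 (the authors' deposited table, p = 0.0796, adjusted p = 0.999).

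**Figure D5:**
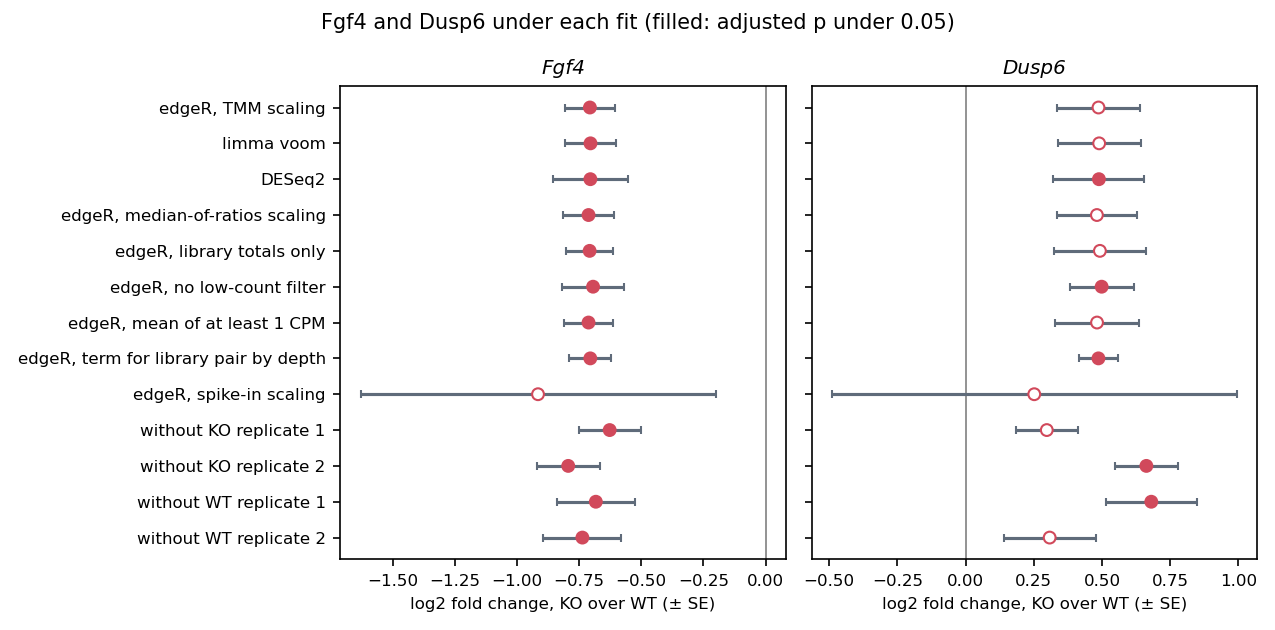
Log2 fold change of KO over WT (± SE) of Fgf4 and Dusp6 under each fit, with filled points at an adjusted p under 0.05. Fgf4 is below 0 in every fit and filled in all but the spike-in scaling; Dusp6 is above 0 in every fit and filled in 5 of 13.

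Summed markers of primitive endoderm and of trophoblast stood higher in both KO libraries, while those of fibroblasts overlapped between genotypes. The summed level of 14 primitive endoderm markers was 1454 and 1927 CPM in KO libraries, against 773.0 and 893.8 CPM in WT libraries, and 10 of the 14 were called higher. For 9 trophoblast markers the sums were 74.8 and 80.4 CPM in KO libraries, against 30.0 and 24.9 CPM in WT libraries, with 5 of 8 tested genes higher. For 8 ES cell markers they were 1117 and 1350 CPM in KO libraries, against 1636 and 1721 CPM in WT libraries. Of 7 tested ES cell markers 1 was called lower, and their median log2 fold change was -0.03, so the lower sum does not describe the typical marker. Sox2, nested in the same-strand gene Sox2ot, was at 0 in all libraries. For 10 fibroblast markers, which feeder cells would carry, the sums were 45.5 and 39.7 CPM in KO libraries and 43.5 and 34.9 CPM in WT libraries, and none of 6 tested genes was called. The median log2 fold change over tested markers was 1.09 for primitive endoderm, 1.22 for trophoblast and 0.19 for fibroblasts. The part of these markers in the values of the 10 genes was not tested.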

How the data were processed

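TT-seq libraries of 2 Supt3 KO and 2 Supt3 WT samples were analysed. The deposited files hold raw counts per mouse and S. pombe gene, and the authors' comparison table, which repeats the mouse counts (100% equal) and adds p-values, log2 fold changes (made with a beta prior, per the table's name) and a normalized signal, which is the raw count over a library's size factor. Per the submitters' processing notes, the tools included DESeq2 1.16.1, HTSeq 0.6.1p1 (a read counter), STAR 2.5.3 (an aligner), cutadapt 1.10 and, for demultiplexing, bcl2fastq 2.20.0.422, with mm10 as the build. For the annotation release, counted feature and strand setting, nothing is stated in the labels. Coordinates are those of the deposited table.

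Genes passing edgeR's filterByExpr (minimum count 10) were tested with edgeR 4.0.16 (R 4.3.3) quasi-likelihood fits with genotype as the only term. SE was taken as the absolute effect over the root of the F statistic, and intervals use the moderated degrees of freedom. Alternatives used DESeq2 1.42.0, limma 3.58.1 (voom), other scalings and filters, a library pair term and each library left out. For spike-in scaling, each library size was the yeast total multiplied by the TMM factor of the yeast genes. The edgeR fit with TMM scaling was tested on simulated counts. Replicates were numbered in accession order. The 10 genes and the lists were chosen with earlier results of these data known. Named beyond the 10 were, in each list, up to 4 called genes by adjusted p, or the 2 most abundant where none was called. One called gene of the cascade list is counted but not reported here. Sox2, Sox2ot, Supt3, Bc1, Fgf3 and Fgf15 were named outside that rule after their values were seen.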

Additional observations from a re-analysis of the deposited data

How the results depend on the processing

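No paired analysis was possible because the labels carry no replicate numbers; the shallower and deeper pairs were formed from the libraries' depth and are not pairs of the design. Fgf4 was called lower under every alternative except spike-in scaling, which called 17 genes in all, 0 of the 10 genes, and 0 in the lists of ligands, cascade genes and feedback inhibitors. Without the low-count filter 2460 of 29514 genes were called. Among them were 1 of the 10 genes on the higher side and 4 feedback, 2 ERK-responsive and 1 receptor gene. With the term for shallower and deeper pairs 4307 of 16789 genes were called. Of the 10 genes 4 were higher and 2 lower, and 5 ligand, 1 receptor, 6 cascade, 9 feedback and 6 ERK-responsive genes passed. DESeq2 called 1107 of 15837 genes, with 1 of the 10 genes higher, 2 feedback genes and 1 ERK-responsive gene. Leaving out 1 library leaves a lone sample assumed to vary like the other genotype. Such fits called 818 to 2823 genes, 0 to 2 of the 10 genes higher and 1 to 2 lower, 1 to 5 ligand, 0 to 1 receptor, 1 to 4 cascade, 0 to 4 feedback and 0 to 4 ERK-responsive genes. Log2 fold changes took the opposite sign for Dusp4 with spike-in scaling (-0.16) and without KO replicate 2 (-0.0669; fits without 1 library gave -0.0669 to 0.18), and for Etv4 with spike-in scaling (-0.0675). Of 228 values of named genes under alternatives, 196 kept their direction and side of the threshold, 16 moved past it and 13 lost it. The cause was not tested. With 2 libraries per genotype, low counts such as those of Fgf3 limit what differences were detectable.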
